A study of Homo sapiens with 4 samples.

Results

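The oxytocin receptor OXTR and 7 other G protein-coupled receptors of epithelial cells were followed in CaSki cells carrying ZNF750 or GFP. The receptors were taken by gene symbol: every probe set whose platform annotation gave exactly 1 symbol, equal to OXTR, F2R, F2RL1, LPAR1, GPRC5A, GPRC5C, ADORA2B or EDNRB, was kept. This gave 15 probe sets of 7 receptors, out of 54613 probe sets that are not array controls and 19775 genes. F2RL1 had no such probe set and was not analysed here. The receptors were put together with the difference between these same arrays already known (OXTR had the largest fall of all genes), so their differences are given as a description and no p-value is attached to them.

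CaSki is a human papillomavirus-positive squamous carcinoma line of the cervix, and ZNF750 is a zinc finger transcription regulator of squamous epithelia. Total RNA from 2 samples with lentiviral ZNF750 and 2 samples with lentiviral GFP as control was hybridised to HG-U133 2.0 Plus expression arrays (Affymetrix), 1 array a sample. The labels state DMEM with 0% fetal bovine serum for both groups, and the design text calls the samples biological duplicates without describing the cultures. The p-values below therefore measure the spread between these arrays, which may be technical. Values are RMA log2 expression, where 1 unit is a doubling, and differences are ZNF750 minus GFP.

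The line was checked against its markers. All 7 measured squamous and epithelial markers of a list of 10 lay above the median of the table (5.48), and their mean was 11.68 and 11.75 in the ZNF750-labelled arrays, against 11.51 and 11.56 in the GFP arrays. Of these 7, the basal keratins KRT14 (1.10 ± 0.035, limma adjusted p = 2.34e-05) and KRT5 (0.24 ± 0.031, adjusted p = 0.00446) rose, the integrin ITGB4 fell (-0.61 ± 0.057, adjusted p = 0.00147), and 4 did not pass. Lists of fibroblast, smooth muscle, endothelial, leukocyte and melanocyte markers averaged between 4.68 and 6.08 in the ZNF750-labelled arrays. In the GFP arrays they averaged between 4.64 and 6.20. Of the measured markers, 3 of 7 fibroblast, 4 of 5 smooth muscle and 3 of 4 melanocyte genes lay above the table median. So did 2 of 5 endothelial and 2 of 5 leukocyte genes. Of the 26 measured genes of these lists, 0 passed the test in either direction (limma, with 2 higher and 1 lower at an unadjusted p under 0.05). The only ZNF750 probe set lay at 2.23 and 2.29 in the ZNF750-labelled arrays, against 2.13 and 2.37 in the GFP arrays, near the lowest values of the table. An introduced coding sequence need not hold the 3′ end that such probe sets read, so this does not check the labels. For the ACTB controls the 3′ minus 5′ difference, which follows RNA integrity and labelling, was 3.76 and 3.35 in the ZNF750-labelled arrays and 3.03 and 2.81 in the GFP arrays. For the GAPDH controls it was 0.85 and 0.80 in the ZNF750-labelled arrays, against 0.63 and 0.61 in the GFP arrays. The part of this difference between the groups in the results below was not tested.

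G protein-coupled receptors span the membrane and, once bound by a ligand, switch on heterotrimeric G proteins inside the cell. The Gq class drives phospholipase C and calcium release, and Gs and Gi raise or lower cyclic AMP through adenylyl cyclase. In surface epithelia such receptors read peptide hormones (OXTR, EDNRB), proteases (F2R), lysophospholipids (LPAR1) and extracellular adenosine (ADORA2B), while GPRC5A and GPRC5C are orphan receptors induced by retinoic acid. Receptor kinases and arrestins silence an active receptor, and RGS proteins speed the shut-off of the G protein.

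OXTR, the receptor for oxytocin, which couples mainly to Gq and is best known from uterus and breast, was lower with ZNF750. Its only probe set (206825_at) read 6.47 and 6.22 in the ZNF750-labelled arrays, against 8.43 and 8.24 in the GFP arrays. The difference was -1.99 ± 0.11 (limma standard error, n = 2 arrays a group), a 3.98-fold lower level. The groups lay 1.77 apart, and the arrays of one group differed by 0.25 (ZNF750) and 0.19 (GFP). Such gaps are given for the receptors as a description only. They were not set against the gaps of all probe sets. Among all 54613 probe sets it had the lowest difference, followed by IGFBP5 (203424_s_at, -1.78) and CNTN1 (227202_at, -1.71). Taken pair by pair, the difference ran between -1.77 and -2.21, and its rank from the lowest was 1 with ZNF750 replicate 2 and 2 with ZNF750 replicate 1, against either GFP array.

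The genes whose 4 values were nearest to those of OXTR were IGFBP5 (211959_at), an insulin-like growth factor binding protein, COL5A1 (212488_at), a fibrillar collagen chain, and CNTN1 (227209_at), a neural cell adhesion molecule. Nearness was the Euclidean distance over the 4 arrays after each gene was centred on its own mean, and it was 0.41 for IGFBP5, 0.52 for COL5A1 and 0.55 for CNTN1. Each gene was represented in this search by its brightest probe set, so other probe sets with large falls were not candidates. The 3 genes differed by -1.69, -1.48 and -1.45. With 2 arrays a group, nearness largely follows the size of the fall, and shared control of these genes was not tested.

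The RefSeq promoter table (GRCh38.p14) holds 300 bases for each annotated start, 250 before and 50 after it, with 3 starts for OXTR. OXTR is shown because it had the lowest difference of the array, and ADORA2B, which was also lower and has 1 start, is set beside it. Of these 2 genes only the windows with a match are printed, so a match in each was fixed by that choice. LPAR1, lower as well, is not printed. The windows of all listed receptors in the table were searched on both strands for CCNNAGGC, a sequence reported for ZNF750 binding. On the other strand it reads GCCTNNGG. Capitals mark the matches.
OXTR, start nearest the coding region (chr3:8768682-8768981, minus strand): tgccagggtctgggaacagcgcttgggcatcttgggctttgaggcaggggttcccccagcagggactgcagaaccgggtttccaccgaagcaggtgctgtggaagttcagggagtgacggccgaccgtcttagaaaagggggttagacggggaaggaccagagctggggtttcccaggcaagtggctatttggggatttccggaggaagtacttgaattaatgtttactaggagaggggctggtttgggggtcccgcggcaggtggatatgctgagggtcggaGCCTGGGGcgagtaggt
OXTR, middle start (chr3:8769183-8769482, minus strand): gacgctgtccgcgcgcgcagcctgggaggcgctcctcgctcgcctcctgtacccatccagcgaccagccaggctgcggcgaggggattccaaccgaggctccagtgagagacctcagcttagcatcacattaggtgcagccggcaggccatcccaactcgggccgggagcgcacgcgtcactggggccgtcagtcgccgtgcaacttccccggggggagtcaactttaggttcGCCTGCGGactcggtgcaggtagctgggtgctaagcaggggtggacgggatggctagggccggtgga
ADORA2B (chr17:15944880-15945179, plus strand): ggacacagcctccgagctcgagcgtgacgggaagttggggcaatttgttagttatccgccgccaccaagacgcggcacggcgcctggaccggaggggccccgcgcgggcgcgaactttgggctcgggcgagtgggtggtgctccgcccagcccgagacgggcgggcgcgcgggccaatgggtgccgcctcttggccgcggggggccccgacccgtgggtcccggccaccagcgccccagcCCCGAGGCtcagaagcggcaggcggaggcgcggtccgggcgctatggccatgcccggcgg
In the middle OXTR window the match began 17 bases before the annotated start, in the window nearest the coding region 33 bases after it, and in ADORA2B 10 bases before it. The remaining OXTR window (chr3:8769564-8769863) held no match, and EDNRB held none in 2 windows. LPAR1 held a match in 2 of 6 windows and F2RL1 in 1 of 1, and F2R, GPRC5A and GPRC5C were not in the table. Together 6 of the 13 windows of the listed receptors held a match, in 4 of 5 genes. Of all 35116 windows, 27.5% held a match, and 31.4% of all genes in the table had 1 or more. Such letters are common, and nothing about binding is read from them.

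**Figure D1:**
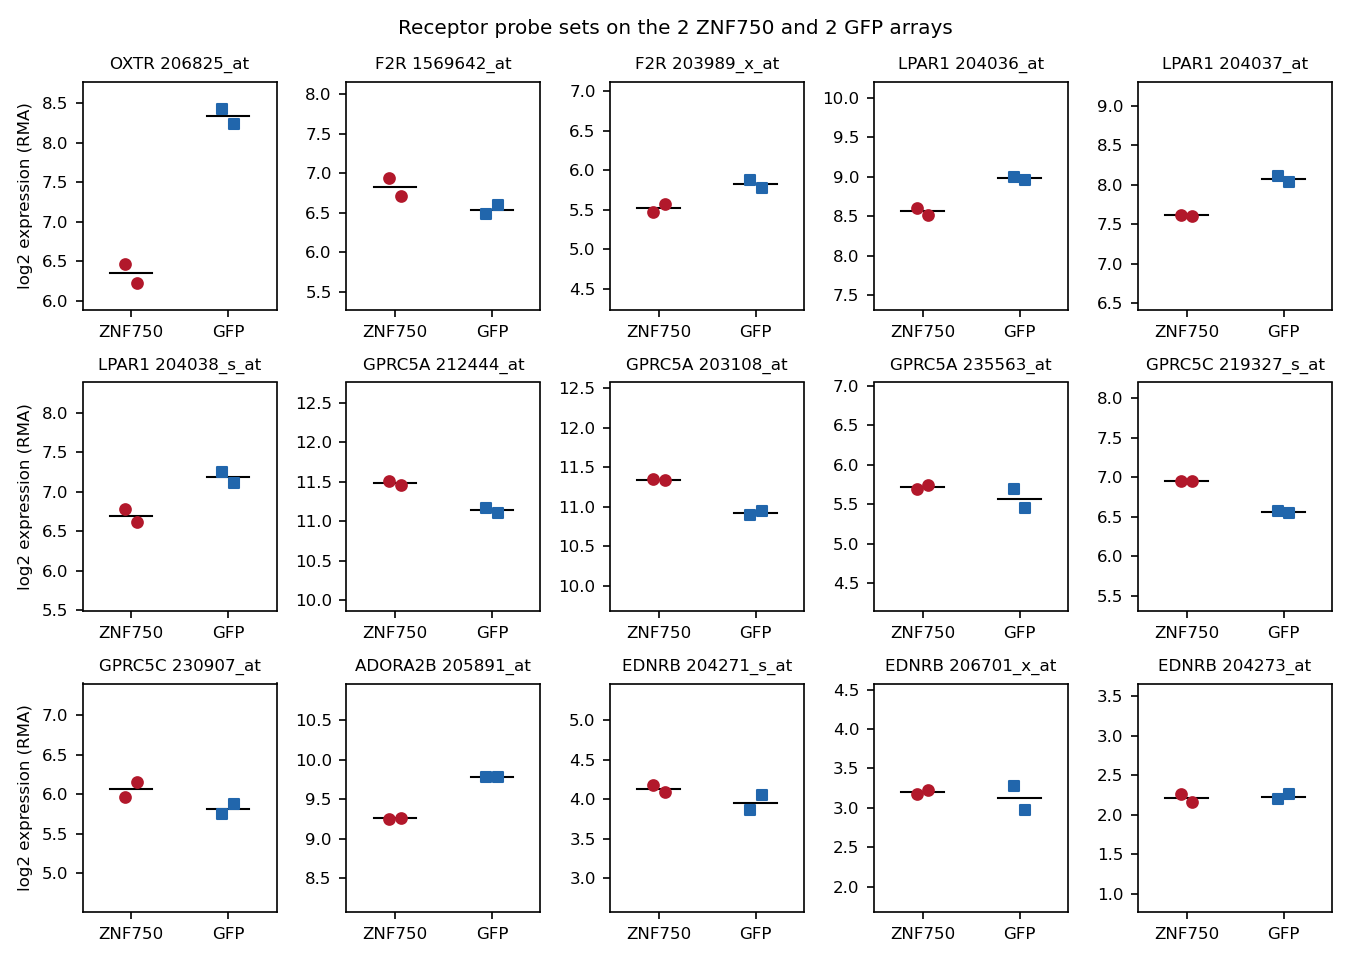
RMA log2 expression (vertical axis, 2.9 units high in every panel) of each receptor probe set on the ZNF750-labelled arrays (red circles) and the GFP arrays (blue squares), with the group mean as a line. OXTR shows the widest gap, 1.77 between the nearest arrays of the groups, and the ADORA2B gap is 0.51.

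As a description only, since the receptors were gathered with this comparison known, 5 of their 15 probe sets lay past limma's adjusted threshold of 0.05 as lower and 3 as higher. Among all probe sets 7.19% passed as lower and 4.30% as higher, and nothing is read from the receptors' share. The groups did not overlap for 13 of the 15, higher for 7 and lower for 6. Among all probe sets this held for 54.2% (29.9% higher, 24.3% lower), and nothing is read from the receptors' larger share. Without either GFP replicate 0 receptor probe sets lay past the threshold, when 11 (without GFP replicate 1) and 9 (without GFP replicate 2) of all 54613 did. Without either ZNF750 replicate 1 lay past it as higher and 2 as lower. The difference of OXTR ranged from -1.87 to -2.12 over these 4 fits.

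LPAR1, a receptor for lysophosphatidic acid that couples to Gi, Gq and G12/13, was lower on each of its 3 probe sets. The brightest (204036_at) read 8.61 and 8.52 in the ZNF750-labelled arrays, against 8.999 and 8.97 in the GFP arrays, a difference of -0.42 ± 0.065. Another (204037_at) read 7.62 and 7.61 with ZNF750, against 8.11 and 8.03 with GFP, or -0.45 ± 0.072. The _s_at probe set (204038_s_at) read 6.78 and 6.61 with ZNF750, against 7.25 and 7.11 with GFP, or -0.49 ± 0.099. The 3 differences lay within their errors of each other, between 1.34-fold and 1.40-fold lower. In each the gap between the groups exceeded the range within them, which is again a description only.

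ADORA2B, the low-affinity adenosine receptor that couples to Gs, was lower by a similar amount, with close replicates. It read 9.25 and 9.27 in the ZNF750-labelled arrays, against 9.79 and 9.78 in the GFP arrays. The difference was -0.53 ± 0.053, or 1.44-fold lower, with a gap of 0.51 between arrays that differed by 0.020 (ZNF750) and 0.0076 (GFP) within groups. By the same distance as above, the genes nearest to it were SAMD4A (0.015), an RNA-binding repressor of translation, TGFBR2 (0.024), a receptor for TGF-beta, and FTSJ1 (0.025), a tRNA methyltransferase. These too were near in the size of the fall, at -0.53, -0.53 and -0.51.

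GPRC5A, an orphan receptor induced by retinoic acid, was higher on its 2 bright probe sets. One (212444_at) read 11.51 and 11.46 in the ZNF750-labelled arrays, against 11.16 and 11.11 in the GFP arrays, a difference of 0.35 ± 0.044. The other (203108_at) read 11.35 and 11.34 with ZNF750, against 10.90 and 10.94 with GFP, or 0.42 ± 0.042, a 1.34-fold higher level. A dimmer probe set (235563_at) read 5.70 and 5.74 with ZNF750, against 5.69 and 5.45 with GFP, where the groups were 0.0049 apart and the difference was 0.15 ± 0.12.

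GPRC5C, a member of the same orphan family, was also higher. Its brighter probe set (219327_s_at) read 6.95 and 6.95 in the ZNF750-labelled arrays, against 6.57 and 6.56 in the GFP arrays, a difference of 0.39 ± 0.084. The other (230907_at) read 5.97 and 6.15 with ZNF750, against 5.75 and 5.87 with GFP, or 0.25 ± 0.11, and its gap of 0.094 was smaller than the range within either group.

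The 2 probe sets of F2R, the thrombin receptor PAR1, went opposite ways. One (1569642_at) read 6.94 and 6.71 in the ZNF750-labelled arrays, against 6.48 and 6.59 in the GFP arrays, a difference of 0.29 ± 0.11. The other (203989_x_at) read 5.47 and 5.57 with ZNF750, against 5.88 and 5.78 with GFP, or -0.31 ± 0.11. The groups did not overlap on either, and no direction can be given for F2R. The suffix _x_at marks probes that can hybridise to other transcripts as well.

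EDNRB, the endothelin B receptor, was dim and its groups were not separated beyond their spread. Its 3 probe sets averaged 4.13 (204271_s_at), 3.20 (206701_x_at) and 2.21 (204273_at) in the ZNF750-labelled arrays, against 3.95, 3.13 and 2.23 in the GFP arrays. The differences were 0.18 ± 0.13, 0.076 ± 0.13 and -0.018 ± 0.10. The groups overlapped on the last 2, and on the first they lay 0.039 apart. All 3 were below the median of the table, and without detection calls it is not known whether they were above background.

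**Figure D2:**
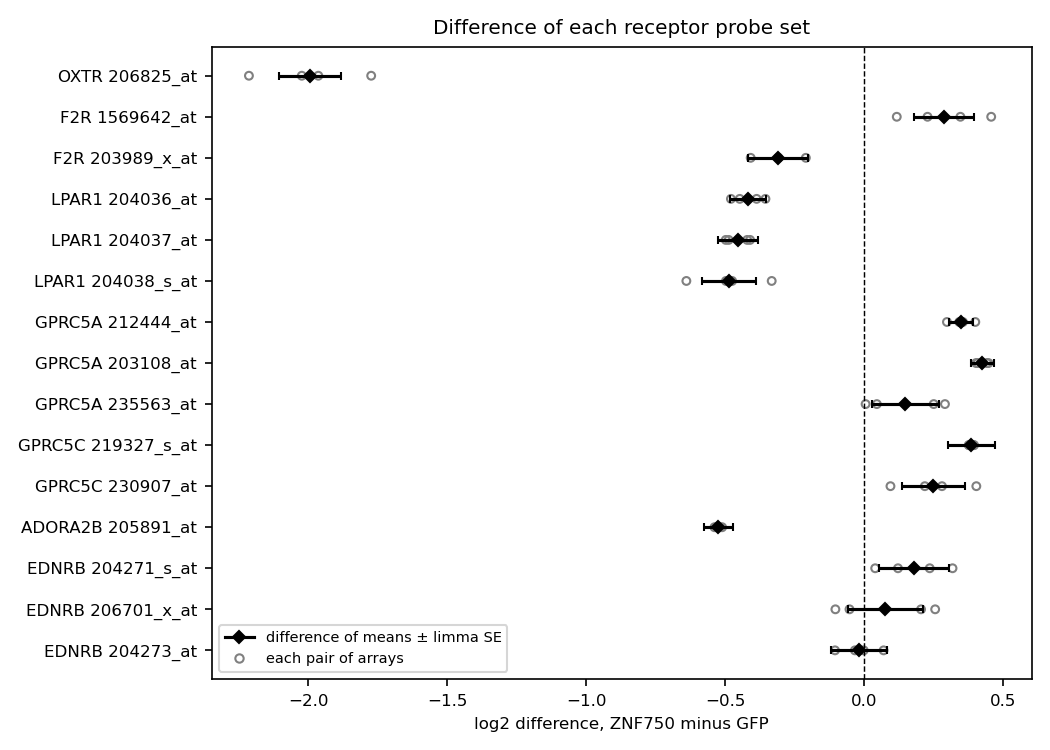
Log2 difference, ZNF750 minus GFP (horizontal axis), of the 15 receptor probe sets: diamonds with bars give the difference of means and limma's standard error, and open circles the 4 single pairs of arrays. OXTR lies at -1.99, LPAR1 and ADORA2B between -0.42 and -0.53, GPRC5A and GPRC5C between 0.15 and 0.42, and EDNRB between -0.018 and 0.18.

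Of 13 measured close relatives of these receptors, 1 was lower, 0 were higher (3 at an unadjusted limma p under 0.05) and 12 did not pass. That is 7.69%, and 7 of the 13 were dimmer than the median probe set, so nothing is read from this count. Their median difference was 0.12, beside 0.036 over all 19775 genes. Each gene is read here by its brightest probe set, and 15.1% of all genes passed in either direction, 6.39% as higher and 8.75% as lower. LPAR3, a second lysophosphatidic acid receptor, read 6.79 and 6.75 in the ZNF750-labelled arrays, against 7.46 and 7.24 in the GFP arrays (-0.58 ± 0.098, limma adjusted p = 0.0111), and its other probe set gave -0.21 and did not pass. The vasopressin receptor AVPR1B, of the family of OXTR, read 7.19 and 7.47 with ZNF750, against 6.77 and 7.17 with GFP, and did not pass (0.36 ± 0.15, adjusted p = 0.179). Without any 1 of the 4 arrays, 0 relatives passed, and the adjusted p of LPAR3 then lay between 0.0887 and 0.162.

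Genes that make, activate or remove the ligands were described next. Of 39 measured, 2 rose, 4 fell and 33 did not pass, and the median difference was 0.077. In the adenosine group 1 of 9 rose and 2 fell. NT5E (CD73), the surface enzyme that makes adenosine from AMP, read 7.34 and 7.48 in the ZNF750-labelled arrays, against 8.31 and 8.31 in the GFP arrays. It was 1.86-fold lower (-0.90 ± 0.078, limma adjusted p = 0.00117), 3 of its 4 probe sets passed as lower, and all 4 lay between -0.34 and -0.90. ADK, the kinase that turns adenosine back into AMP, read 10.47 and 10.28 with ZNF750, against 11.22 and 11.04 with GFP (-0.76 ± 0.080, adjusted p = 0.00226), and its second probe set gave -0.33 and did not pass. ADA, which deaminates adenosine and is named here after its values were seen, rose narrowly (0.31 ± 0.079, adjusted p = 0.0480), and its second probe set gave 0.029.

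Among 17 genes of thrombin and trypsin-like proteases and their inhibitors, 1 rose and 1 fell. THBD, thrombomodulin, the surface protein that turns thrombin from clotting to protein C activation, read 10.46 and 10.37 in the ZNF750-labelled arrays, against 9.46 and 9.39 in the GFP arrays. It was 1.99-fold higher (0.99 ± 0.058, limma adjusted p = 0.000289), and all 3 of its probe sets passed as higher, between 0.62 and 1.12. The gene that fell, TFPI2, a protease inhibitor named here after its values were seen, differed by -0.28 ± 0.057 (adjusted p = 0.0218), and its second probe set gave -0.039 and did not pass. F3 (tissue factor) differed by 0.13 ± 0.036, PROCR (the protein C receptor) by -0.049 ± 0.067 and ST14 (matriptase) by -0.029 ± 0.074, and these 3, also named after their values were seen, did not pass.

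In the lysophosphatidic acid group 1 of 6 fell and 0 rose (2 at an unadjusted limma p under 0.05). PLPP2, a phosphatase that removes lysophosphatidic acid, read 8.84 and 8.72 in the ZNF750-labelled arrays, against 9.23 and 9.15 in the GFP arrays (-0.41 ± 0.068, adjusted p = 0.0102). Its relative PLPP3 (0.52 ± 0.16) and ENPP2 (0.49 ± 0.17), the autotaxin that makes lysophosphatidic acid, named after their values were seen, did not pass on their brightest probe sets. The second probe set of ENPP2 passed as higher (0.63 ± 0.12, adjusted p = 0.0152). Of the 6 endothelin genes 0 rose and 0 fell (0 and 0 at an unadjusted limma p under 0.05), and EDN1, the endothelin made by keratinocytes, differed by 0.062 ± 0.065. OXT, the gene of oxytocin, read 5.46 and 5.48 with ZNF750, against 5.41 and 5.72 with GFP, near the median of the table and with overlapping groups. Over the whole group of 39, 0 passed without either GFP replicate, while 1 was higher and 2 lower without ZNF750 replicate 1, and 1 was higher and 1 lower without ZNF750 replicate 2. THBD and NT5E kept their calls without either ZNF750 replicate, and without GFP replicate 1 or 2 they had adjusted p-values of 0.0876 and 0.0720 (THBD) and 0.115 and 0.0935 (NT5E).

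**Figure D3:**
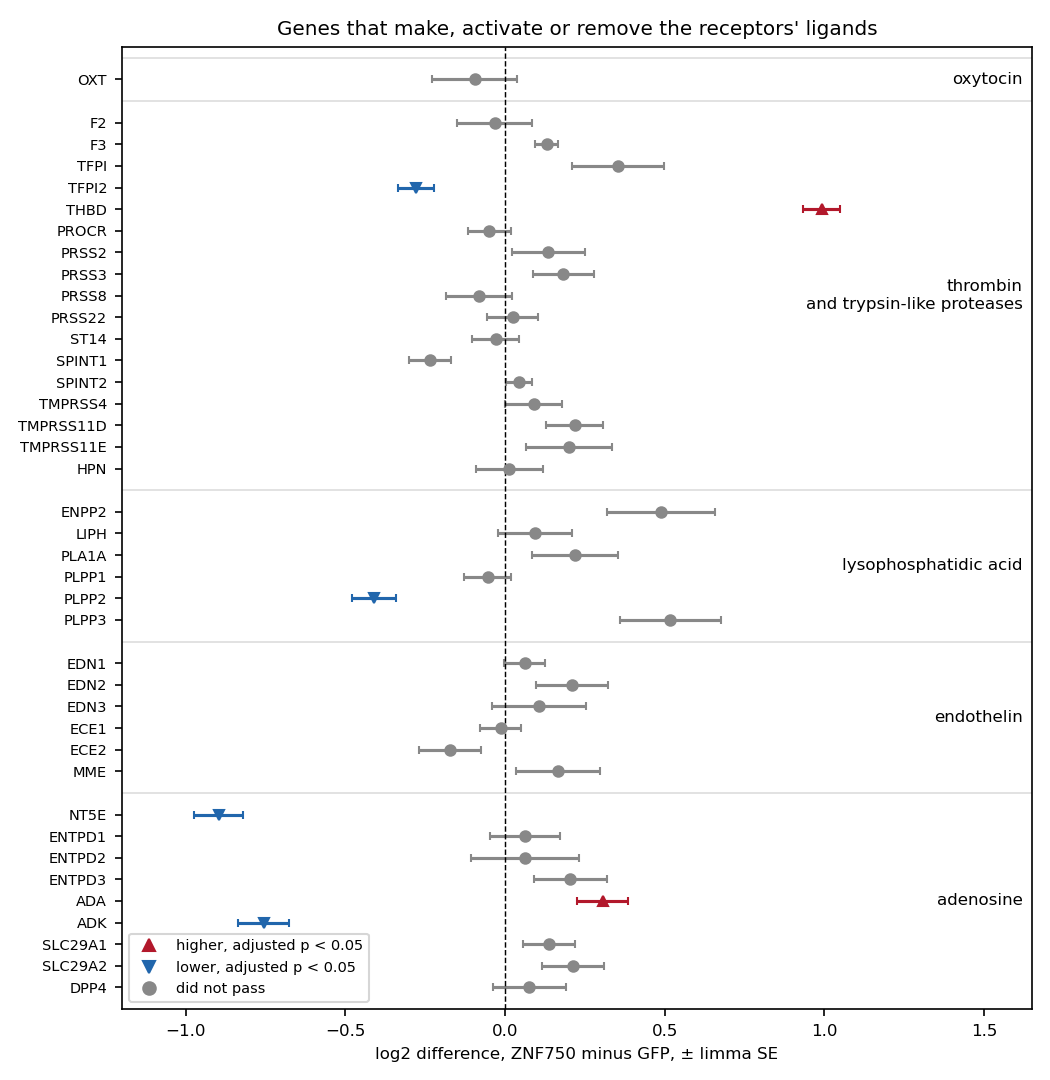
Log2 difference, ZNF750 minus GFP, with limma's standard error (horizontal axis) for 39 genes that make, activate or remove the ligands, grouped by ligand. THBD at 0.99 and ADA at 0.31 passed as higher, NT5E, ADK, PLPP2 and TFPI2 as lower, and the other 33 did not pass.

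Of 28 measured heterotrimeric G protein subunits, 7 fell and 1 rose, while 20 did not pass, where 8.75% of all genes passed as lower and 6.39% as higher. The median difference was -0.062 and the lowest -0.33. Only 6 of the 28 were dimmer than the median probe set. With dim probe sets left out, the median difference over all probe sets was -0.017, against 0.026 with them. The part of brightness in these falls was not tested. GNB1, a beta subunit, read 11.15 and 11.18 in the ZNF750-labelled arrays, against 11.40 and 11.49 in the GFP arrays (-0.28 ± 0.046, limma adjusted p = 0.00985), and all 3 of its probe sets passed as lower, down to -0.53. The gamma subunits GNG5 (-0.30 ± 0.038, adjusted p = 0.00421) and GNG11 (-0.33 ± 0.069, adjusted p = 0.0251) and the inhibitory alpha subunit GNAI1 (-0.26 ± 0.064, adjusted p = 0.0411) also fell. The second probe sets of GNG11 and GNAI1 gave 0.30 and 0.046 and did not pass, and GNAI1 did not pass after cyclic loess (0.0695) or a second quantile normalization (0.0636). The alpha subunit that rose was GNA11, of the Gq class (0.26), chosen for naming once its value was known. Its other 5 probe sets, between -0.015 and 0.24, did not pass. Without any 1 array, 0 subunits passed. The 7 lower calls became 4 after a second quantile normalization or with the mean of probe sets, 3 without _s_at and _x_at probe sets and 0 without the intensity trend, and the 1 higher call became 0 with that mean.

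Receptor kinases, arrestins and RGS proteins gave 1 rise, 2 falls and 21 that did not pass among 24. RGS20, which acts on the Gi class, read 7.68 and 7.67 in the ZNF750-labelled arrays, against 8.40 and 8.38 in the GFP arrays (-0.71 ± 0.068, limma adjusted p = 0.00156), but its other probe set gave 0.070. RGS12 fell on its brightest probe set (-0.39 ± 0.081, adjusted p = 0.0229), while another of its 10 passed as higher (0.53), and the mean of its probe sets did not pass (-0.092). RGS1, dim on all 4 arrays, rose (0.46 ± 0.11, adjusted p = 0.0392) on 1 of its 3 probe sets. It did not pass after cyclic loess (0.0640) or a second quantile normalization (0.0710). Nor did it pass without the intensity trend (0.0663) or with the mean of probe sets (0.109), but it did in the fit over 1 probe set per gene (0.0310). Without either GFP replicate 0 passed, and without either ZNF750 replicate 1 was lower and 0 higher.

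Of 39 second messenger and other effector genes, 4 fell and 1 rose, while 34 did not pass and the median difference was 0.028. PRKCA, protein kinase C alpha, which acts below Gq, read 6.92 and 6.78 in the ZNF750-labelled arrays, against 7.66 and 7.55 in the GFP arrays (-0.76 ± 0.089, limma adjusted p = 0.00332). With the mean of its 5 probe sets it did not pass (-0.25, adjusted p = 0.0824). ITPR2, a calcium channel opened by inositol trisphosphate, fell on 3 of its 4 probe sets (brightest -0.56 ± 0.11, adjusted p = 0.0189). The cyclic AMP genes ADCY3, an adenylyl cyclase (-0.51 ± 0.090, adjusted p = 0.0131), and PRKACB, a catalytic subunit of protein kinase A (-0.48 ± 0.078, adjusted p = 0.00908), fell as well. ADCY3 has another probe set, at -0.26, that missed the threshold (adjusted p = 0.0916), and 1 of the 3 of PRKACB gave -0.066 and did not pass. Without either GFP replicate or ZNF750 replicate 2, 0 of these genes passed, and 2 were lower without ZNF750 replicate 1.

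Among 288 other measured G protein-coupled receptors, olfactory and taste receptors aside, 9 fell, 1 rose and 278 did not pass (17 lower and 26 higher at an unadjusted limma p under 0.05). That is 3.47%, beside 15.1% of all genes, and 172 of the 288 were dimmer than the median probe set. FZD2, a Frizzled receptor for Wnt ligands, was 1.98-fold lower on its brightest probe set (-0.99 ± 0.052, limma adjusted p = 0.000242) and -0.85 on the other. CELSR1, an adhesion receptor of planar polarity, fell (-0.69 ± 0.10, adjusted p = 0.00703) but not with the mean of its probe sets (-0.22, adjusted p = 0.105). P2RY2, a Gq-coupled receptor for extracellular ATP and UTP, read 6.44 and 6.24 in the ZNF750-labelled arrays, against 7.01 and 6.98 in the GFP arrays (-0.66 ± 0.10, adjusted p = 0.00746). The receptor that rose was S1PR3, for sphingosine 1-phosphate (0.67 ± 0.12, adjusted p = 0.0126), but its other probe set gave -0.22 and did not pass, nor did the mean of the 2 (0.23, adjusted p = 0.250). The count of receptors that rose was 4 under either renormalization (cyclic loess or quantile), with dim probe sets left out and in the fit over 1 probe set per gene, and 7 with the mean of probe sets. OXTR had the lowest difference of all probe sets and was chosen with this known, so its place below all 288 was fixed beforehand. The lowest difference among the 288 was that of FZD2. Without either GFP replicate 0 of these receptors passed, and those lower numbered 4 without ZNF750 replicate 1 and 1 without ZNF750 replicate 2.

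**Figure D4:**
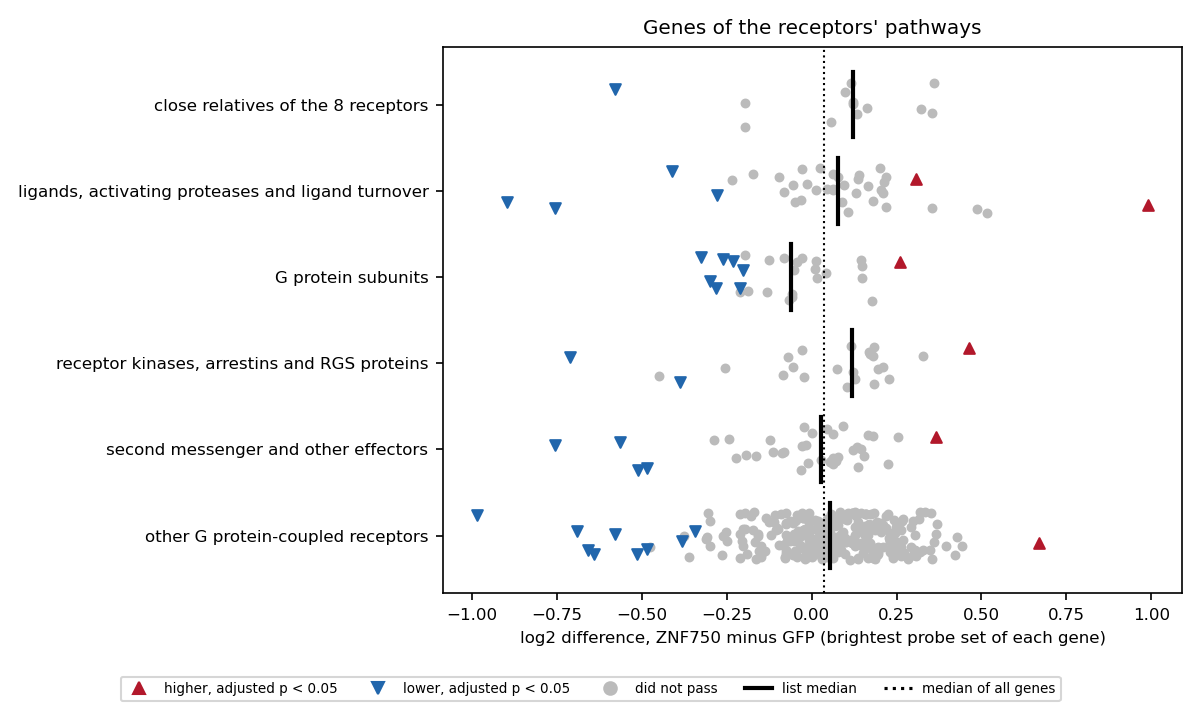
Log2 difference, ZNF750 minus GFP (horizontal axis), of each gene's brightest probe set in 6 lists, with genes that passed as higher (red triangles) or lower (blue triangles), genes that did not pass (grey) and the list median (black bar). List medians lie between -0.062 and 0.12, beside 0.036 for all genes (dotted line), and the median of the G protein subunits, most of them bright, is the lowest.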

How the data were processed

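The data are 4 single-colour arrays, 2 of ZNF750-labelled and 2 of GFP samples, grouped by their titles. The authors deposited 1 table of log2 values for 54675 probe sets, made with RMA per the submitters' processing notes, in a version not stated there. The method subtracts background, quantile normalizes and summarises probe sets, and can understate differences of dim ones. No scanner files or detection calls were used, and the number of arrays limits precision.

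The 62 control probe sets were left out. Symbols came from the platform annotation: 41091 probe sets had 1 symbol, 1801 several and 11721 none, and a match of 41037 to RefSeq by Entrez identifier changed 0 symbols. Limma 3.58.1 in R 4.3.3 (lmFit, eBayes with an intensity trend, 2 residual degrees of freedom) was fitted over all other probe sets, with Benjamini-Hochberg adjustment and a two-sided threshold of 0.05. For the lists, each gene was read by its 1-symbol probe set with the highest mean. Standard errors are limma's. An exact permutation test of 2 against 2 arrays cannot reach the threshold and was not used.

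The receptors, lists and tests were chosen with earlier results of these data known. From each list the text names up to 4 genes with the largest absolute differences among those that passed with groups that did not overlap, or the 2 largest where fewer than 2 passed, and beside them genes it marks as named after their values were seen. For OXTR and for receptors whose brightest probe set differed by at least 0.5, the 3 nearest genes are named. Listed genes with no 1-symbol probe set were not used, and 1 effector gene that rose is not reported here by name. Alternatives covered the variance prior, dim probe sets, 2 normalizations, the replicate block, the threshold, the probe set of a gene and each array left out.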

Additional observations from a re-analysis of the deposited data

How the results depend on the processing

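Counts of receptor probe sets in this section are a description only, since the receptors were gathered with this comparison known. The main fit called 2348 probe sets higher and 3927 lower, among them 3 and 5 of the receptors, and 6 and 27 genes of the 6 lists. Without the intensity trend these became 520 and 754, 0 and 2, and 1 and 7. After cyclic loess the table gave 3141 and 3710 and the lists 9 and 24, and after a second quantile normalization 3204 and 3630 and 9 and 23, so that 54.2% and 53.1% of the table's calls were lower, against 62.6%. At an adjusted p under 0.01 the table gave 704 and 1474 and the lists 1 and 14. List genes called higher numbered 10 with dim probe sets left out, with the mean of probe sets per gene and in a fit over 1 probe set per gene, and those called lower 17 without _s_at and _x_at probe sets. With 1 array left out, the ranges were 8 to 267 higher and 1 to 661 lower over the table, 0 to 1 and 0 to 2 for the receptors, and 0 to 1 and 0 to 9 for the lists; such fits have fewer arrays, and a lone array is assumed to vary like the other group. The difference of OXTR lay between -1.87 and -2.12 in every fit. After cyclic loess 7 and after a second quantile normalization 6 of the 15 receptor values moved by more than the SD between replicates, and no called receptor changed direction. Among the moved values, the falls of LPAR1 and ADORA2B shrank (ADORA2B from -0.53 to -0.46 and -0.47). The rises of GPRC5A and GPRC5C grew (GPRC5A 203108_at from 0.42 to 0.49 and 0.50). EDNRB 204273_at moved lower after cyclic loess, from -0.018 to -0.086. The 20 genes that passed among those named by the rule on the largest differences kept their direction wherever they had a value. They kept the call in 18 cases after either normalization, 13 with the mean of probe sets, 7 without the trend, and 8, 4, 0 and 0 without ZNF750 replicate 1, ZNF750 replicate 2, GFP replicate 1 and GFP replicate 2. These fits were not followed for ADA, TFPI2 and GNA11. Over the alternatives that keep all 4 arrays, genes called higher and lower numbered 0 to 1 and 0 to 1 among the close relatives, 1 to 4 and 2 to 5 among the ligand genes, 0 to 2 and 0 to 10 among the G protein subunits, 0 to 1 and 1 to 2 among the receptor kinases, arrestins and RGS proteins, 0 to 1 and 1 to 4 among the effectors, and 0 to 7 and 3 to 11 among the other receptors. The cause of these changes was not tested.

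The replicate numbers are shared between the groups, but no label says that they mark a pair, and the deviations of same-numbered arrays correlated at 0.13 across probe sets. With the replicate number as a block, 2002 probe sets were called higher and 3792 lower, and 3 and 5 of the receptors. AVPR1B then passed (0.0479) and RGS1 did not (0.0653). Signals of dim probe sets such as those of EDNRB limit what could be seen of them.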
